A study of Mus musculus with 12 samples.

Results

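The mRNAs of the aminoacyl-tRNA synthetases were followed in gradient pools of 4T1 cells, a line derived from a mouse mammary tumor. Stable transfectants carried either METTL7A1 or, as mock cells, the empty vector. The members were chosen by symbol: every gene named for a one-letter amino acid code followed by ars, with or without a closing 1 or 2, together with Eprs, Farsa, Farsb and Tarsl2. Lars2, the mitochondrial leucine enzyme, was left out because the rule names its counts as following rRNA-like reads. Of the 55376 genes in the count table, of which 22519 had at least 1 count, 37 were members. They comprised 20 genes whose symbols lack a closing 2, called cytosolic here, 16 genes ending in 2, called mitochondrial here, and Tarsl2, a threonyl-tRNA synthetase-like gene kept apart from both classes. Wars, Kars and Gars were counted as cytosolic; Kars and Gars are known to supply the enzymes of both compartments. All 37 members reached 1 CPM (count scaled by library size, with TMM factors) in at least 3 libraries and were tested.

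Aminoacyl-tRNA synthetases join each amino acid to its tRNAs, and the charged tRNAs are what the ribosome reads. Cytosolic enzymes serve the translation of nuclear-encoded mRNAs, and a number of them are held with the scaffold proteins AIMP1, AIMP2 and EEF1E1 in the multisynthetase complex. Mitochondrial enzymes are also encoded in the nucleus and translated in the cytosol, but serve the translation of the mRNAs of the mitochondrial genome. Many cytosolic synthetase genes are known targets of ATF4, the transcription factor of the amino acid response.

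The 12 libraries made 4 groups of 3: mock sub-polysomal and mock polysomal, lettered A to C, and METTL7A1 sub-polysomal and METTL7A1 polysomal, lettered D to F. All cells had received cycloheximide at 0.1 mg/ml during 5 min before lysis, which keeps ribosomes in place along the mRNA, and their cytoplasmic lysates were spun through sucrose gradients. Fractions 3 to 7, with the free subunits and monosomes, made the sub-polysomal pool, and fractions 8 to 11, with light and heavy polysomes, made the polysomal pool. Each genotype was represented by its stable transfectants, and the sources used here do not say whether these were 1 clone or a mixed population. The gradients are described as run on biological triplicates, and p-values measure the spread between the libraries of these transfectants. A library holds relative amounts, so a level of an mRNA in one pool is its share of that pool and not an amount per cell. In bulk RNA, a smaller share of cells with an mRNA and less of it per cell cannot be told apart.

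Library totals ranged from 1817520 counts in mock sub-polysomal A to 6966156 in mock polysomal C, and the members held 0.164 to 0.466% of the counts. Mettl7a1, the transfected gene, had 5, 4 and 16 counts in mock sub-polysomal and 24, 22 and 23 counts in mock polysomal libraries. In METTL7A1 cells it had 1191, 1146 and 989 counts in sub-polysomal and 2252, 2436 and 1621 counts in polysomal libraries. Transcripts of the mitochondrial genome took 4.37 to 8.49% of the sub-polysomal counts and 0.684 to 2.14% of the polysomal counts. Lars2 stood apart in mock sub-polysomal C with 14506 counts and in METTL7A1 polysomal F with 22087 counts, against 1782 to 5539 counts elsewhere, and calls that changed without these 2 libraries are given both ways. All 6 epithelial markers were present in every library (Epcam, 171 to 561 CPM), whereas 9 of 10 markers of blood, endothelial, fibroblast and fat cells were below the filter and Pdgfra had 4 to 43 counts. Of the 6 epithelial markers, 5 passed the test used below as higher in METTL7A1 than in mock polysomal RNA, and 1 passed as higher and 1 as lower in sub-polysomal RNA.

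Per kilobase of exon, Kars, the lysine enzyme, was the most abundant cytosolic member in each group, with a mean of 182 CPM per kb in mock sub-polysomal, 165 in mock polysomal, 136 in METTL7A1 sub-polysomal and 147 in METTL7A1 polysomal RNA. Lars, the leucine enzyme, was the least abundant cytosolic member in each group, between 4.55 and 11.0 CPM per kb. Yars2, the mitochondrial tyrosine enzyme, led the mitochondrial class, between 19.0 and 36.9 CPM per kb, and Mars2, the mitochondrial methionine enzyme, closed it, between 1.51 and 2.12 CPM per kb. Mars2 had the longest exon sequence of the members, 11294 bases, with a coding length of 1758 bases. Before division by length its group means, 17.0 to 23.9 CPM, lay above those of Ears2, 6.43 to 7.87 CPM. The class medians lay between 24.8 and 45.3 CPM per kb for the cytosolic members and between 4.26 and 5.99 CPM per kb for the mitochondrial members.

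Summed over the class, the cytosolic mRNAs reached 1983 ± 81.8 CPM (SD, n = 3) in mock sub-polysomal, 2945 ± 373 in mock polysomal, 1678 ± 83.8 in METTL7A1 sub-polysomal and 2879 ± 222 in METTL7A1 polysomal RNA. The 3 polysomal libraries of each genotype lay above its 3 sub-polysomal libraries. In sub-polysomal RNA the METTL7A1 libraries, 1587 to 1752 CPM, lay below the mock libraries, 1922 to 2076 CPM, whereas the polysomal ranges of the genotypes overlapped. The mitochondrial mRNAs summed to 422 ± 17.6 CPM in mock sub-polysomal, 424 ± 33.3 in mock polysomal, 493 ± 51.1 in METTL7A1 sub-polysomal and 516 ± 63.9 in METTL7A1 polysomal RNA. For this class the pools of a genotype overlapped, and so did the genotypes within each pool.

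**Figure D1:**
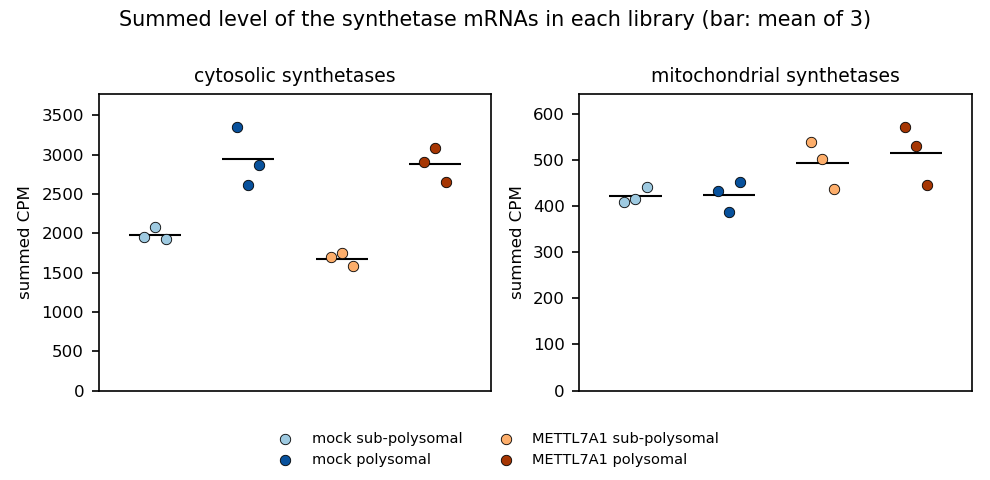
Summed level of the 20 cytosolic (left) and 16 mitochondrial (right) synthetase mRNAs, in CPM on axes from 0, with 1 point per library and a bar at the mean of 3 libraries in each group. Cytosolic sums were higher in polysomal RNA of both genotypes, and mitochondrial sums lay between 387 and 571 CPM in all groups.

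Since ATF4 acts through a short promoter element, the motif TGATGNAA, or TTNCATCA on the opposite strand, was sought between 250 bases before and 50 bases after the RefSeq start of each gene (GRCm38.p6). A promoter was matched for 27 of 37 members, 13 cytosolic, 13 mitochondrial and Tarsl2. Among the unmatched were Cars, Hars, Lars, Nars, Rars, Vars, Wars, Hars2 and Pars2. The motif was found for 5 of 27 members (18.5%), against 1304 of 32851 promoters in all (3.97%). Members were counted by gene and the background by promoter, so the shares have unlike units. The 5 were Aars, Gars, Iars, Tars and Yars, the enzymes for alanine, glycine, isoleucine, threonine and tyrosine. They were 5 of the 8 genes with a matched promoter among 12 cytosolic enzymes listed here as ATF4-responsive from general knowledge. The motif was found for 0 of the other 5 matched cytosolic and 0 of 13 matched mitochondrial genes. The 30-base windows around the matches in Gars, Iars, Tars and Yars are shown 5′ to 3′ on the strand of the gene, with the motif in capitals, because these mRNAs return in the comparisons of genotypes; a match describes the letters and not a bound site.
Gars, chr6:55037960-55037989, plus strand, 30 bases before the start: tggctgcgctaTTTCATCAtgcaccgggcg
Iars, chr13:49682126-49682155, plus strand, 8 bases after the start: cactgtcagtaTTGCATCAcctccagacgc
Tars, chr15:11399655-11399684, minus strand, 15 bases before the start: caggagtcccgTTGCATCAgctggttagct
Yars, chr4:129189895-129189924, plus strand, 4 bases after the start: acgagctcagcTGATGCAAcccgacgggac

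The first comparison asked how each mRNA was distributed between the pools of mock cells. Cytosolic synthetase mRNAs were mostly higher in polysomal RNA: 15 of 20 passed as higher and 0 as lower, with a median log2 difference of 0.69. A gene passed at a Benjamini-Hochberg adjusted p below 0.05 over the 12224 genes tested with the quasi-likelihood test of edgeR. Among these 12224 genes, 23.3% passed as higher and 23.7% as lower, and the median log2 difference was 0.05. Mitochondrial synthetase mRNAs were split, with 2 of 16 higher, 2 lower and a median of 0.09. With Tarsl2, which was higher, 18 of 37 members passed as higher and 2 as lower.

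Wars, the tryptophan enzyme, had 58.7, 52.2 and 44.4 CPM in sub-polysomal libraries A, B and C and 118, 102 and 108 CPM in the polysomal ones (log2 difference 1.09 ± 0.14 SE, adjusted p = 7.47e-06). Aars had 54.2, 46.3 and 46.0 CPM in sub-polysomal and 134, 98.0 and 102 CPM in polysomal RNA (1.20 ± 0.15 SE, adjusted p = 7.67e-06). Hars, the histidine enzyme, had 64.3, 65.2 and 53.3 CPM against 158, 122 and 122 CPM (1.14 ± 0.15 SE, adjusted p = 8.64e-06). For all 3 mRNAs every polysomal library lay above every sub-polysomal library, and polysomal A was the highest of its group. Gars followed with 123, 158 and 142 CPM in sub-polysomal and 352, 266 and 295 CPM in polysomal RNA (1.10 ± 0.15 SE). Dars, Iars, Lars, Mars, Nars, Qars, Rars, Tars and Yars passed with differences between 0.66 for Mars and 1.00 for Yars, and the smallest among those passing were Sars for serine, 0.52, and Vars for valine, 0.54. Cars, Eprs, Farsa, Farsb and Kars did not pass. Kars, the most abundant of them, had 393, 449.8 and 380.2 CPM in sub-polysomal and 386, 335 and 389 CPM in polysomal RNA, and these ranges overlapped.

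In the mitochondrial class Hars2, the histidine enzyme, had 13.5, 11.3 and 16.8 CPM in sub-polysomal and 27.9, 18.3 and 21.3 CPM in polysomal RNA of mock cells (log2 difference 0.66 ± 0.22 SE, adjusted p = 0.0163). Fars2, the phenylalanine enzyme, went the other way, with 26.0, 17.0 and 22.3 CPM against 10.9, 11.8 and 14.9 CPM (−0.77 ± 0.18 SE, adjusted p = 0.00212). Yars2 fell from 79.0, 79.6 and 90.2 CPM to 62.3, 52.5 and 64.8 CPM (−0.48 ± 0.13 SE, adjusted p = 0.00598). The groups of Hars2, Fars2 and Yars2 did not overlap. The 12 mitochondrial members that did not pass lay between −0.14 (Wars2) and 0.43 (Nars2). Hars2 lost its call without mock polysomal A (0.48, adjusted p = 0.0859) or mock sub-polysomal B (0.52, adjusted p = 0.0903), and with Actb scaling, in which libraries were scaled to the count of Actb, the beta-actin gene (0.58, adjusted p = 0.0559). Without both libraries of high Lars2 counts Yars2 (−0.41, adjusted p = 0.0598) and Vars (0.47, adjusted p = 0.0754) were not called. Vars was also lost without mock polysomal A, mock sub-polysomal A or mock sub-polysomal C (0.44, 0.43 and 0.47), and Tarsl2 without mock sub-polysomal B (0.70, against 1.03 with all libraries).

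Between the pools of METTL7A1 cells the cytosolic class again lay towards polysomal RNA, with 17 of 20 higher, 0 lower and a median log2 difference of 1.09. In the mitochondrial class 5 of 16 were higher and 4 lower, with a median of 0.10. With Actb scaling 2 mitochondrial members were higher and 5 lower, with a median of −0.15 against −0.18 over all genes, and with each library thinned to the smallest total 2 were higher and 2 lower. Of all 12224 genes, 2137 were higher and 4230 lower with Actb scaling, and 2774 and 2961 with thinning. With Tarsl2, higher by 1.32 ± 0.31 SE, 23 of 37 members were higher and 4 lower, while 30% of all genes tested were higher and 29.3% lower, with a median of 0.06. By the limits that the study set for total RNA, an adjusted p below 0.01 and a log2 change beyond 1.5, Hars was the 1 member past them here, against 12.1% of all genes. No member passed those limits in mock cells, where 7.55% of genes did. Most genes past the limits were lower in polysomal RNA, whereas Hars was higher. Of all 12224 genes, 215 were higher and 1265 lower in METTL7A1 cells, and 84 and 839 in mock cells.

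Hars had 59.4, 52.9 and 56.0 CPM in METTL7A1 sub-polysomal libraries D, E and F and 174, 170.4 and 139.5 CPM in the polysomal ones (1.53 ± 0.15 SE, adjusted p = 1.74e-07). Rars, the arginine enzyme, had 96.5, 102 and 83.7 CPM against 245, 238 and 216 CPM (1.31 ± 0.15 SE, adjusted p = 6.68e-07). Gars had 104, 109 and 94.7 CPM against 251, 269.5 and 224 CPM (1.27 ± 0.15 SE, adjusted p = 1.14e-06). In these 3 mRNAs each polysomal library was above each sub-polysomal library. Tars (1.32 ± 0.17 SE), Lars (1.28 ± 0.16 SE) and Nars, the asparagine enzyme (1.26 ± 0.16 SE), came next. Aars, Dars, Iars, Mars, Qars and Yars lay between 1.03 and 1.17, Sars at 0.82 and Cars at 0.38. Wars had 50.7, 57.3 and 47.8 CPM against 91.2, 102 and 89.4 CPM (0.86 ± 0.14 SE).

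Eprs, the joint enzyme of glutamate and proline, was higher in polysomal RNA of METTL7A1 cells by 1.13 ± 0.18 SE on the log2 scale, and Farsb, the beta subunit of the phenylalanine enzyme, by 0.68 ± 0.14 SE. Their differences in mock cells had been 0.32 ± 0.17 SE and 0.16 ± 0.14 SE, which did not pass. Farsa, the alpha subunit of the same enzyme, had 165, 182 and 183 CPM in sub-polysomal and 169, 191 and 171 CPM in polysomal RNA of METTL7A1 cells, and the pools overlapped. Kars, with 317, 315 and 282 CPM against 322, 357 and 309.6 CPM, and Vars, with 214, 207 and 173 CPM against 208, 244 and 186 CPM, did not pass either. With offsets that removed the trend of each library with GC content, Vars passed as higher (0.84, adjusted p = 6.36e-05), and the cytosolic class had 19 of 20 members higher. Of all 12224 genes, 3774 were higher and 3399 lower with these offsets.

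Among mitochondrial enzymes in METTL7A1 cells, Hars2 had 20.9, 13.2 and 12.4 CPM in sub-polysomal and 32.9, 27.6 and 29.0 CPM in polysomal RNA (0.97 ± 0.21 SE, adjusted p = 0.000524). Fars2 again was lower in polysomal RNA, with 21.9, 18.1 and 18.6 CPM against 12.5, 11.3 and 10.1 CPM (−0.78 ± 0.18 SE, adjusted p = 0.00134). Neither mRNA overlapped between pools. Iars2 for isoleucine (0.77), Rars2 for arginine (0.54) and Nars2 for asparagine (0.49) passed as higher, and Sars2 for serine (−0.66), Cars2 for cysteine (−0.54) and Pars2 for proline (−0.44) as lower. The 7 that did not pass lay between −0.24 (Yars2) and 0.25 (Wars2). The counts of Hars and Hars2 may be shared in part, as their exons overlap by 195 bases on opposite strands and the strand setting of the counting is not stated in the sources used here. Iars2 shares 32.2% of its exon bases with neighbours on the opposite strand, Aars 23.1% with Exosc6 on the same strand and Farsb 11.3% with Sgpp2 on the opposite strand.

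Several of these smaller calls in METTL7A1 cells depended on single libraries. Without METTL7A1 polysomal D, Cars (0.41), Iars2 (0.47), Nars2 (0.50) and Pars2 (−0.39) were not called, and without METTL7A1 sub-polysomal F, Cars (0.29), Iars2 (0.59), Nars2 (0.34), Rars2 (0.39) and Pars2 (−0.48) were not. Cars and Nars2 were also lost without METTL7A1 polysomal E (0.27 and 0.37), Cars and Pars2 without METTL7A1 sub-polysomal E (0.35 and −0.43), and Pars2 without METTL7A1 polysomal F (−0.37) or sub-polysomal D (−0.40). With GC offsets Sars2 was at 0.01 (adjusted p = 0.963) and Cars2 at −0.25 (adjusted p = 0.118), which left Fars2 and Pars2 as lower. Of the higher mitochondrial members, Iars2 (0.53, adjusted p = 0.067), Rars2 (0.26, adjusted p = 0.169) and Nars2 (0.21, adjusted p = 0.329) were then not called, while Aars2 (0.58, adjusted p = 0.0432), Ears2 for glutamate (0.62, adjusted p = 0.00982) and Vars2 (0.58, adjusted p = 0.00422) passed as higher, so that 3 of the 5 higher members were other genes than before. Actb scaling also ended the calls of Iars2 (0.51), Rars2 (0.30), Nars2 (0.23) and Cars (0.13) and added Yars2 as lower (−0.48). Without both libraries of high Lars2 counts Pars2 was not called (−0.37, adjusted p = 0.143).

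**Figure D2:**
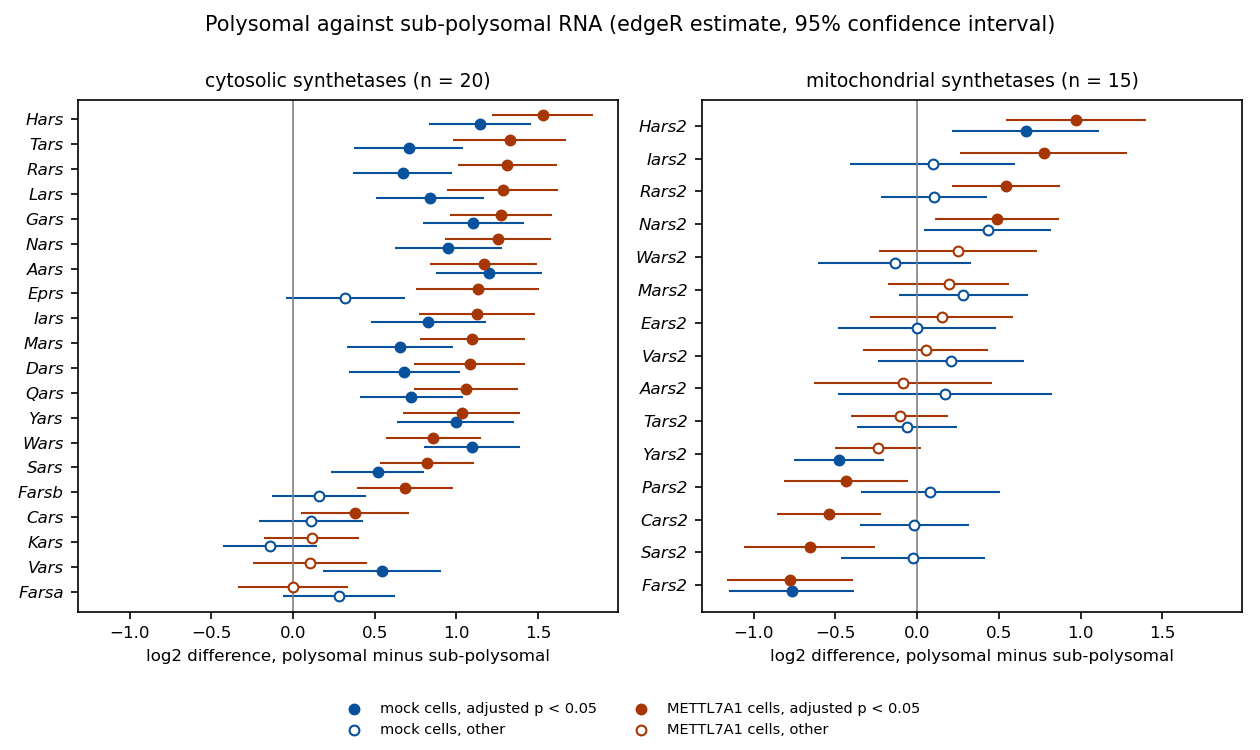
Log2 difference between polysomal and sub-polysomal RNA for 20 cytosolic (left) and 15 mitochondrial (right) members in mock (blue) and METTL7A1 (brown) cells, as edgeR estimates with 95% confidence intervals; filled points passed at an adjusted p below 0.05. Most cytosolic points lie right of 0 in both genotypes, whereas mitochondrial points spread from −0.78 for Fars2 to 0.97 for Hars2.

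For 13 amino acids both a cytosolic and a mitochondrial gene named by the same letter were members. The cytosolic mRNA had the larger log2 difference towards polysomes than its mitochondrial partner in 12 of 13 pairs in mock cells and in 13 of 13 in METTL7A1 cells, with median differences between partners of 0.54 and 0.77. Yars and Yars2 were furthest apart in mock cells, by 1.47, and Sars and Sars2 in METTL7A1 cells, by 1.47. Across the 20 cytosolic members, coding length and the log2 difference between pools had a Spearman rho of −0.09 in mock and 0.14 in METTL7A1 cells, and across the 16 mitochondrial members 0.43 and 0.22. These points share their libraries and are a description across genes.

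METTL7A1 and mock cells were next compared within the sub-polysomal pool. In the cytosolic class 7 of 20 mRNAs were lower and 1 higher in METTL7A1 cells, with a median log2 difference of −0.40 and 17 of 20 below 0. In the mitochondrial class 6 of 16 were higher and 0 lower, with a median of 0.27 and 11 of 16 above 0. The classes overlapped, from −1.08 to 0.88 in the cytosolic and −0.54 to 1.02 in the mitochondrial class, and no test of the difference between classes was run. Of all genes tested 16.8% were higher and 14.5% lower, and the median was −0.0015. Together 7 of 37 members were higher and 7 lower. When libraries were scaled to the Actb count, 11 members were higher and 3 lower, with class medians of −0.14 and 0.53, and the median of all genes moved to 0.26. Of all 12224 genes, 3283 were then higher and 667 lower. No member passed the limits of the study for total RNA, against 2.76% of all genes.

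By the coordinates deposited with the counts (GRCm38), the genes at the lower end of this comparison are Eprs (chr1:185363044-185428360, plus strand), Tars (chr15:11382301-11399665, minus) and Cars (chr7:143557230-143600090, minus). Those at the upper end are Vars (chr17:35000987-35016322, plus), Vars2 (chr17:35655634-35667592, minus) and Yars2 (chr16:16302965-16309640, plus). Counts were taken over the exons of these genes. Eprs had 102, 87.8 and 79.2 CPM in mock sub-polysomal and 44.8, 40.7 and 41.1 CPM in METTL7A1 sub-polysomal RNA (−1.08 ± 0.18 SE, adjusted p = 0.000288). Tars fell from 61.0, 68.9 and 66.1 CPM to 31.8, 37.7 and 32.0 CPM (−0.95 ± 0.17 SE, adjusted p = 0.000419). Cars, the cysteine enzyme, fell from 58.7, 75.2 and 59.4 CPM to 43.1, 35.0 and 32.3 CPM (−0.82 ± 0.16 SE, adjusted p = 0.000901). In each of the 3 mRNAs the METTL7A1 libraries lay below all mock libraries, and all 3 remained lower with Actb scaling (−0.83, −0.69 and −0.54) and with GC offsets (−0.84, −0.71 and −0.97). Farsb (−0.61 ± 0.14 SE), Sars (−0.51 ± 0.14 SE), Gars (−0.46 ± 0.15 SE) and Kars (−0.42 ± 0.14 SE) were the other lower mRNAs. With Actb scaling these 4 were not called (−0.34, −0.25, −0.19 and −0.16). The 12 cytosolic members that did not pass lay between −0.43 (Aars) and 0.44 (Farsa).

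Vars moved against the cytosolic class, from 93.1, 131 and 97.3 CPM in mock to 214, 207 and 173 CPM in METTL7A1 sub-polysomal RNA (0.88 ± 0.17 SE, adjusted p = 0.000875), without overlap. Vars2, its mitochondrial counterpart, rose from 9.59, 14.8 and 15.2 CPM to 33.5, 31.0 and 19.9 CPM (1.02 ± 0.21 SE, adjusted p = 0.00152). Yars2 rose from 79.0, 79.6 and 90.2 CPM to 119.7, 116 and 112 CPM (0.48 ± 0.13 SE, adjusted p = 0.00949). The 3 METTL7A1 libraries lay close to each other and above all mock libraries, and the groups of Vars2 did not overlap either. Pars2 rose from 13.0, 8.81 and 8.69 CPM to 17.2, 16.4 and 15.3 CPM (0.75 ± 0.21 SE, adjusted p = 0.0106), and Aars2 for alanine (0.94 ± 0.31 SE), Sars2 (0.69 ± 0.21 SE) and Cars2 (0.56 ± 0.16 SE) completed the higher mitochondrial mRNAs. The 10 others did not pass, among them Iars2 (−0.54) and Mars2 (0.30). Across the 13 pairs, the cytosolic mRNA had the higher log2 difference in 3 (Iars, Rars and Wars). Tarsl2 had 5.64, 2.52 and 7.11 CPM in mock and 2.98, 6.70 and 2.87 CPM in METTL7A1 sub-polysomal RNA, and these ranges overlapped.

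Eprs, Tars, Cars, Farsb, Sars, Vars, Vars2 and Yars2 passed in each fit that left out 1 library. Gars was lost without METTL7A1 sub-polysomal D or F or mock sub-polysomal B or C (−0.47, −0.41, −0.37 and −0.46), and Kars without METTL7A1 sub-polysomal E or F or mock sub-polysomal B (−0.45, −0.37 and −0.34). Aars2 was lost without any of 5 libraries, METTL7A1 sub-polysomal D or E or mock sub-polysomal A, B or C (0.65, 0.90, 0.91, 0.97 and 0.90). Sars2 was lost without METTL7A1 sub-polysomal D or E or mock sub-polysomal A (0.60, 0.66 and 0.60), Cars2 without METTL7A1 sub-polysomal E or mock sub-polysomal A (0.45 and 0.41), and Pars2 without mock sub-polysomal C (0.63). Without both libraries of high Lars2 counts 5 members were higher and 5 lower, and Gars (−0.46, adjusted p = 0.0798), Kars (−0.47, adjusted p = 0.0569), Aars2 (0.90, adjusted p = 0.0798) and Pars2 (0.63, adjusted p = 0.0856) were not called. Of all 12224 genes, 1484 were then higher and 1321 lower.

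**Figure D3:**
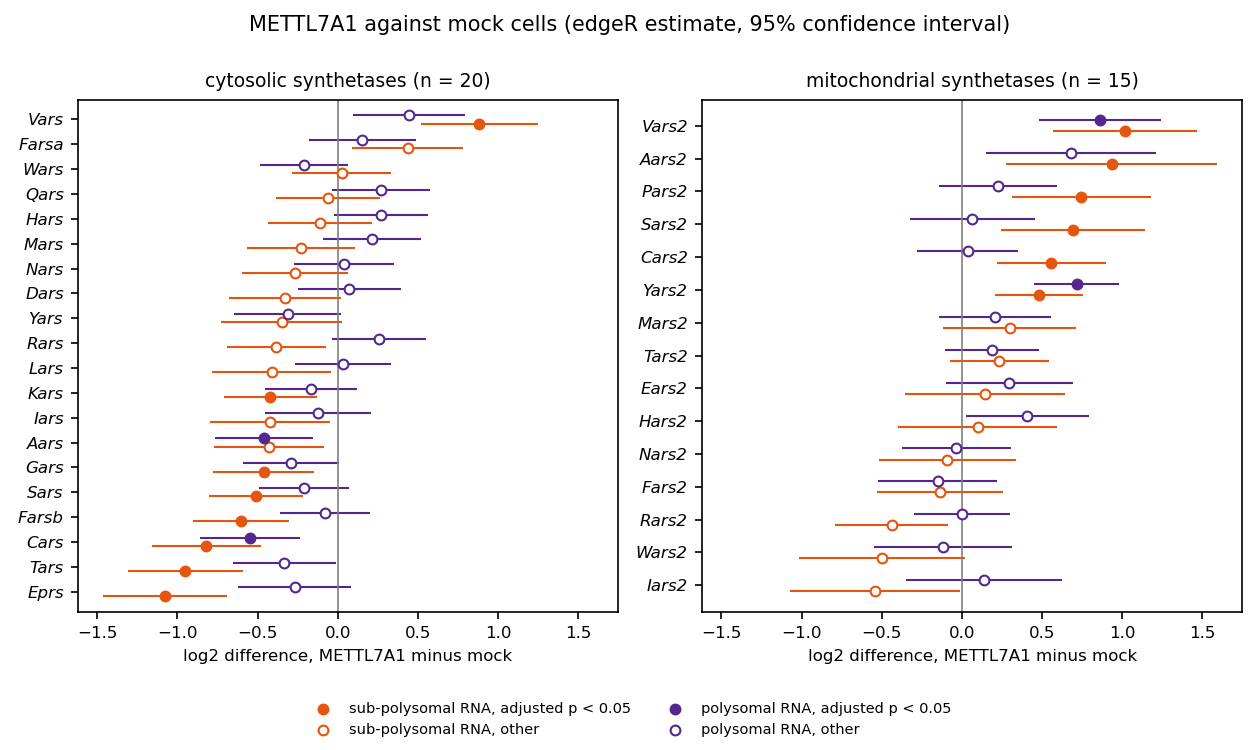
Log2 difference between METTL7A1 and mock cells for 20 cytosolic (left) and 15 mitochondrial (right) members in sub-polysomal (orange) and polysomal (purple) RNA, as edgeR estimates with 95% confidence intervals; filled points passed at an adjusted p below 0.05. Sub-polysomal points run from −1.08 for Eprs to 1.02 for Vars2, and polysomal points from −0.55 for Cars to 0.86 for Vars2.

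GC content moved with these sub-polysomal differences. Across all 12157 genes with a GC content, its Spearman rho with the log2 difference was 0.40, across the 20 cytosolic members 0.37 and across the 16 mitochondrial members 0.62. The members' transcripts had 41.2 to 60.8% GC in the cytosolic class (median 50.9%) and 38.8 to 60.1% in the mitochondrial class (median 52.0%), so the classes covered much the same range. Vars was the member of highest GC content (60.8%), followed by Sars2 (60.1%) and Aars2 (60.0%), while Eprs had 47.2% and Tars 46.6%. With GC offsets rho was 0.00 and 0.01 in the classes. The offsets were fitted to the GC trend of these same libraries, so a rho near 0 is no separate result. With the offsets 0 cytosolic mRNAs were higher and 6 lower (Aars, Cars, Eprs, Kars, Sars and Tars). Of the mitochondrial mRNAs 3 were higher (Pars2 and Vars2 among them) and 0 lower. Of all 12224 genes, 1644 were higher and 1511 lower with the offsets. The class medians were then −0.29 and 0.21. Vars (0.30, adjusted p = 0.143), Yars2 (0.32, adjusted p = 0.0616), Aars2 (0.38), Cars2 (0.25), Sars2 (0.14), Farsb (−0.35) and Gars (−0.37) were no longer called. Whether GC content itself affected the counts was not tested.

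**Figure D4:**
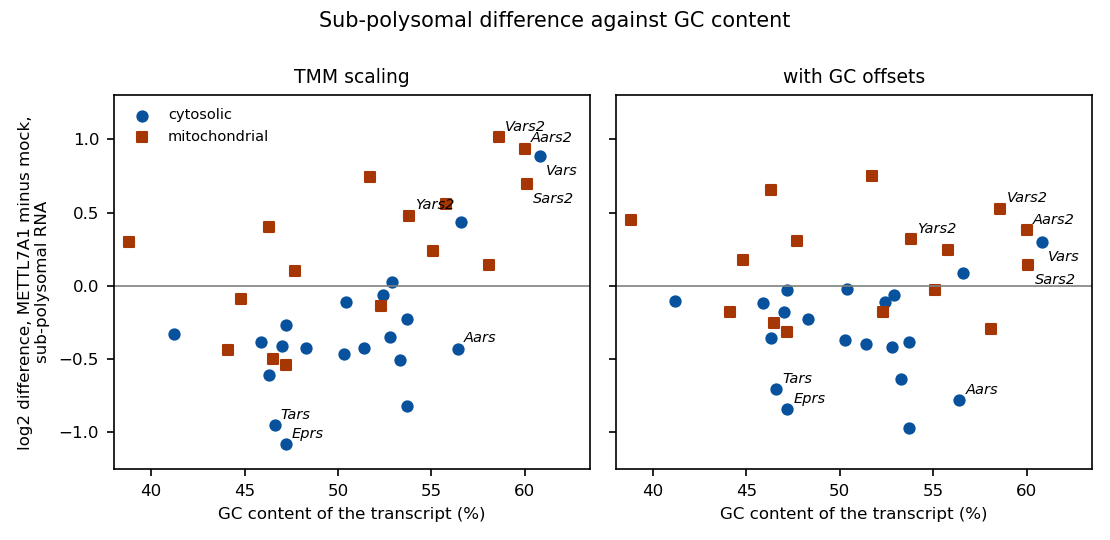
Log2 difference between METTL7A1 and mock cells in sub-polysomal RNA (vertical axis) against GC content of the transcript in percent (horizontal axis), for 20 cytosolic (blue circles) and 16 mitochondrial (brown squares) members, with TMM scaling (left) and with GC offsets (right). The offsets were fitted to the GC trend of these libraries, and the upward slope on the left is absent on the right. There Eprs and Tars stay near the bottom and Vars moves to 0.30.

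Grouped by what the enzymes are known for, the 8 enzymes of the multisynthetase complex (Dars, Eprs, Iars, Kars, Lars, Mars, Qars and Rars) all had sub-polysomal differences below 0, with 2 passing (Eprs and Kars) and a median of −0.40. The 12 cytosolic members outside the complex had 9 differences below 0, with 5 lower, 1 higher and a median of −0.39. The 12 cytosolic members listed as ATF4-responsive had 5 lower (Cars, Eprs, Gars, Sars and Tars), 0 higher and a median of −0.43, and the 8 other cytosolic members 2 lower, 1 higher and a median of −0.22. Over all genes 14.5% were lower and 16.8% higher, with a median of −0.0015 on the same scale. Of the 5 promoters holding the motif, those of Gars and Tars belonged to mRNAs that were lower, while Aars (−0.43, adjusted p = 0.0540), Iars (−0.42, adjusted p = 0.0790) and Yars (−0.35, adjusted p = 0.146) did not pass.

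Of the scaffolds, Aimp1 had 97.1, 109.5 and 91.6 CPM in mock sub-polysomal and 70.3, 64.5 and 53.6 CPM in METTL7A1 sub-polysomal RNA (−0.67 ± 0.14 SE, adjusted p = 0.00195), without overlap, though with Actb scaling it did not pass (adjusted p = 0.0714). In polysomal RNA it had 146, 117 and 131 CPM in mock and 155, 159 and 142 CPM in METTL7A1 libraries, so that its difference between pools was 0.40 in mock and 1.28 in METTL7A1 cells. The call in mock cells was lost without mock polysomal A, mock sub-polysomal A or mock sub-polysomal C (0.32, 0.36 and 0.34). It was also lost with Actb scaling (0.32, adjusted p = 0.119) and without both libraries of high Lars2 counts (0.34, adjusted p = 0.133). Aimp2 had 84.1, 109 and 113 CPM in mock sub-polysomal, 146, 120.1 and 144 CPM in mock polysomal, 103, 111 and 90.4 CPM in METTL7A1 sub-polysomal and 145, 149.7 and 133 CPM in METTL7A1 polysomal RNA. It was higher in polysomal RNA of both genotypes (0.41 and 0.49), in mock cells not without polysomal A or C or sub-polysomal A (0.36, 0.38 and 0.27), and the genotypes overlapped in each pool. With Actb scaling Aimp2 passed neither in mock (0.34, adjusted p = 0.101) nor in METTL7A1 cells (0.24, adjusted p = 0.211). Eef1e1 had 199.8, 170.3 and 179.6 CPM in mock sub-polysomal, 129, 168 and 122 CPM in mock polysomal, 199, 277 and 325 CPM in METTL7A1 sub-polysomal and 158, 161 and 187 CPM in METTL7A1 polysomal RNA. It was the scaffold that was lower in polysomal RNA of METTL7A1 cells (−0.67 ± 0.17 SE, adjusted p = 0.00263). Its higher level in METTL7A1 sub-polysomal RNA (0.55, adjusted p = 0.0219) rested on libraries that overlapped with mock and was lost without mock sub-polysomal B or C or METTL7A1 sub-polysomal E or F (0.50, 0.53, 0.52 and 0.38). Without both libraries of high Lars2 counts this call was lost too (0.53, adjusted p = 0.0746).

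In polysomal RNA fewer members differed between the genotypes. Yars2 and Vars2 were higher in METTL7A1 cells and Cars and Aars lower, 2 and 2 of 37, while 9.69% of all genes were higher and 8.28% lower. The medians were −0.10 for cytosolic, 0.20 for mitochondrial members and −0.01 for all genes. Yars2 had 62.3, 52.5 and 64.8 CPM in mock polysomal and 106, 93.6 and 95.5 CPM in METTL7A1 polysomal RNA (0.72 ± 0.13 SE, adjusted p = 0.000634). Vars2 had 14.3, 15.9 and 17.4 CPM against 32.3, 29.3 and 24.9 CPM (0.86 ± 0.18 SE, adjusted p = 0.00262). Both mRNAs lay without overlap above mock and kept their call with Actb scaling (0.82 and 0.95), and with each library left out.

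Cars had 75.9, 64.6 and 68.5 CPM in mock polysomal and 45.3, 54.3 and 43.1 CPM in METTL7A1 polysomal RNA (−0.55 ± 0.15 SE, adjusted p = 0.0147). Aars had 134, 98.0 and 102 CPM against 74.9, 91.6 and 76.0 CPM (−0.46 ± 0.14 SE, adjusted p = 0.0340). The groups did not overlap for either mRNA, but Cars was lost without METTL7A1 polysomal D or F (−0.51 and −0.48) and Aars without D or F or mock polysomal A (−0.41, −0.42 and −0.31). With Actb scaling 4 members were higher and 0 lower, while 1234 of all 12224 genes were higher and 495 lower. Without mock polysomal A, 6 were higher, with Hars (0.40), Rars (0.39), Vars (0.55) and Hars2 (0.59) added to Yars2 and Vars2, and 1 lower. Of all genes, 1103 were higher and 1119 lower without that library. Aars2 had a difference of 0.68 (adjusted p = 0.0681) and passed without METTL7A1 polysomal F (0.87, adjusted p = 0.0337). Without both libraries of high Lars2 counts Aars2 passed too (0.87, adjusted p = 0.0364), and Cars (−0.48, adjusted p = 0.0780) and Aars (−0.42, adjusted p = 0.134) did not. No member passed the limits of the study for total RNA, against 2.13% of all genes.

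**Figure D5:**
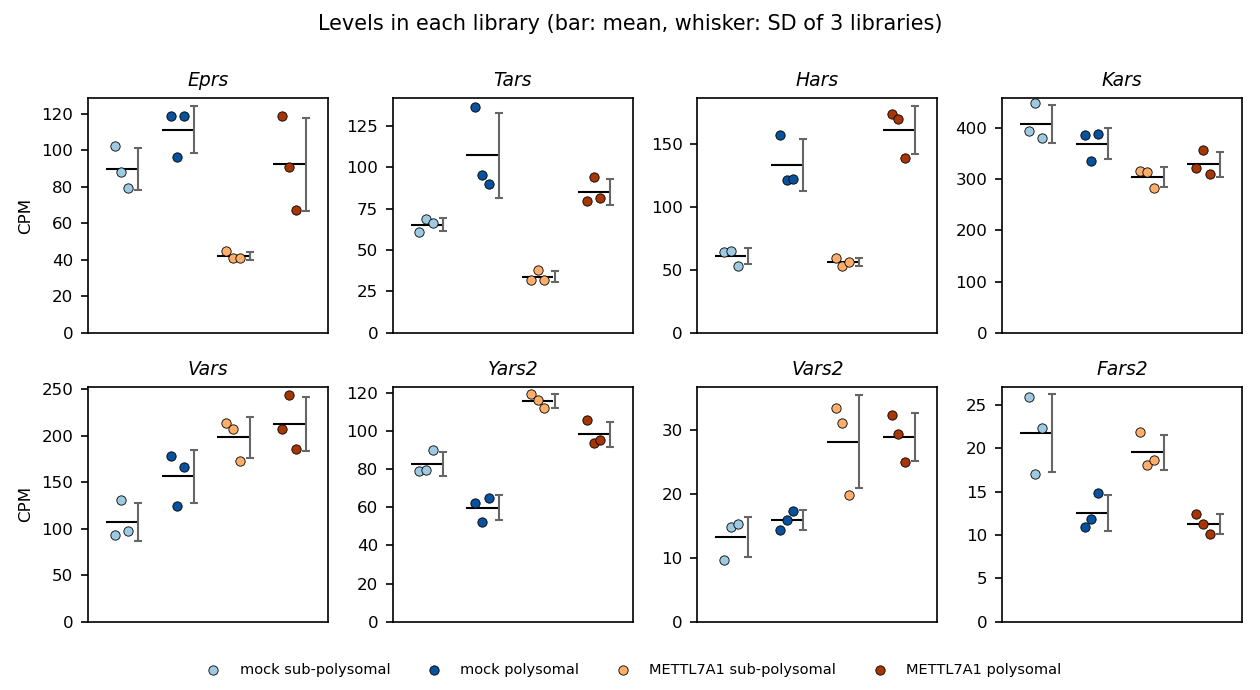
Levels of 8 members in CPM on axes from 0, with 1 point per library in replicate order, a bar at the mean and a whisker of 1 SD (n = 3) for each of the 4 groups. Eprs and Tars are lowest in METTL7A1 sub-polysomal libraries, Hars is high in both polysomal groups, and Yars2 and Vars2 are higher in METTL7A1 libraries of both pools.

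The difference between genotypes in the change between pools, called the shift to polysomes here, was tested directly. No member passed in edgeR's test at an adjusted p below 0.05, and 0% of all genes did. At an unadjusted p below 0.05, 6 of 37 members lay past the threshold, 4 above and 2 below 0, against 15.6% of all genes. Eprs had the lowest adjusted p of the members (log2 shift 0.81 ± 0.25 SE, adjusted p = 0.138), followed by Rars (0.64 ± 0.20 SE, adjusted p = 0.146). Of the mitochondrial members, Cars2 (−0.52 ± 0.22 SE, adjusted p = 0.266) and Sars2 (−0.63 ± 0.28 SE, adjusted p = 0.294) had the lowest. DESeq2 called 1 member, Rars (0.64, adjusted p = 0.0425), and without mock polysomal A edgeR called Rars (0.78, adjusted p = 0.0362) and Tars (0.83, adjusted p = 0.0359). Of all 12224 genes, DESeq2 called 143 as above and 186 as below 0, and edgeR without mock polysomal A called 121 and 278. Aimp1 had a shift of 0.88 ± 0.20 SE (adjusted p = 0.114), which DESeq2 called (adjusted p = 0.00308).

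The median shift was 0.30 in the cytosolic class, with 16 of 20 above 0, −0.01 in the mitochondrial class, with 7 of 16 above 0, and −0.01 over all genes. The 8 complex enzymes had shifts between 0.25 for Kars and 0.81 for Eprs, and the 12 cytosolic members outside the complex between −0.44 and 0.62. GC content and the shift had a Spearman rho of −0.76 across the 20 cytosolic members, −0.56 across the 16 mitochondrial members and −0.42 across 12157 genes. With GC offsets rho was −0.33 in the cytosolic and 0.16 in the mitochondrial class, and the median shifts were 0.26 and 0.16. With Actb scaling the medians were 0.17 and −0.17, against −0.17 over all genes. These correlations run across genes of the same libraries and describe them only.

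Other genes of the pathway were counted from lists of general knowledge. Their counts stand beside shares over all genes of 16.8% higher and 14.5% lower in METTL7A1 sub-polysomal RNA, 9.69 and 8.28% in METTL7A1 polysomal RNA, and 23.3 and 23.7% (mock) or 30 and 29.3% (METTL7A1) between pools. Of 5 cytosolic elongation factors, Eef1a1, which carries charged tRNA to the ribosome, was the 1 that was lower in METTL7A1 sub-polysomal RNA (−1.15 ± 0.18 SE, adjusted p = 0.000117), and Eef1d the 1 that was higher in polysomal RNA (0.44 ± 0.15 SE, adjusted p = 0.0468). In the polysomal pool 2 of the 5 were higher and 1 lower for mock cells, 3 and 0 for METTL7A1 cells. Of 13 mitochondrial translation factors and amidotransferase subunits, 0 were higher and 6 lower in METTL7A1 sub-polysomal RNA. The lowest p belonged to the release factor gene Mtrf1l (−0.94), the initiation factor gene Mtif2 (−1.28) and Qrsl1, which takes part in the indirect route to charged glutamine tRNA in mitochondria (−0.68). In polysomal RNA 0 of the 13 were higher and 2 lower, Qrsl1 (−0.64) and Mtrf1 (−1.10). The polysomal pool of mock cells had 0 higher and 3 lower, led by Mrrf (−0.91) and Gatc (−0.82), and that of METTL7A1 cells 3 higher and 2 lower. Of 8 genes of tRNA editing, deacylation, end processing and export that were tested, 1 was higher and 2 lower in METTL7A1 sub-polysomal and 0 higher and 1 lower in METTL7A1 polysomal RNA, and polysomal RNA had 1 higher and 3 lower in mock and 3 each in METTL7A1 cells. Xpot, the exporter of tRNA from the nucleus, was higher in polysomal RNA of both genotypes (1.20 and 1.06), and Dtd2, a deacylase gene, was lower in METTL7A1 cells in both pools (−1.27 and −1.04).

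Of 26 genes of the amino acid response, 6 were higher and 8 lower in METTL7A1 sub-polysomal RNA, against 2 higher and 10 lower in the polysomal pool. Over all genes these shares were 16.8% higher and 14.5% lower in the sub-polysomal and 9.69% higher and 8.28% lower in the polysomal pool. Atf4 itself had 875, 1409 and 1393 CPM in mock sub-polysomal, 199.6, 393 and 382 CPM in mock polysomal, 1929, 1824 and 2069 CPM in METTL7A1 sub-polysomal and 269, 309 and 339 CPM in METTL7A1 polysomal RNA. It was thus lower in polysomal RNA of both genotypes (−1.92 and −2.67) and higher in METTL7A1 sub-polysomal RNA (0.66 ± 0.23 SE, adjusted p = 0.0321), whereas its polysomal levels overlapped between genotypes. Ddit3, a stress response factor, was likewise higher in METTL7A1 sub-polysomal RNA (0.71, adjusted p = 0.0406), and its exons overlap those of Mars by 68 bases on the opposite strand. Chac1, which degrades glutathione, was lower in METTL7A1 cells in both pools (−1.27 and −1.86), as was Trib3, a pseudokinase gene (−0.87 and −1.41). Atf3 was higher in both (1.24 and 1.17), and Atf5 in sub-polysomal RNA (1.26). Asns, the asparagine synthetase and a widely used ATF4 target, had 87.4, 74.8 and 77.2 CPM in mock and 62.6, 79.5 and 64.2 CPM in METTL7A1 polysomal RNA and did not pass in either pool (log2 difference −0.21 in polysomal and −0.24 in sub-polysomal RNA). Vldlr, the remaining gene of lowest p in polysomal RNA, had 3.30 to 4.10 CPM in mock and 0.168 to 0.274 CPM in METTL7A1 libraries. Polysomal RNA of mock cells had 7 of the 26 higher and 7 lower, and that of METTL7A1 cells 5 higher and 7 lower, while over all genes 23.3 and 23.7% were called in mock and 30 and 29.3% in METTL7A1 cells. Eif4ebp1, which restrains cap-dependent initiation, was lower in both (−1.60 and −2.29).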

How the data were processed

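The paper describes rRNA depletion, stranded libraries and trimming with BBDuk in its methods for sequencing total RNA. Reads of the gradient pools were mapped to mm10 with STAR 2.5.3a and summarised over GRCm38 genes using featureCounts. What the authors deposited are raw, whole counts per gene. The strand setting and the handling of reads matching several genes are not given in the sources used here.

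Groups and replicate letters came from the labels. Genes that reached 1 CPM in 3 or more libraries (12224) were scaled with TMM factors and fitted in edgeR 4.0.16 (R 4.3.3) with 1 mean per group over all 12 libraries. Contrasts were tested with glmQLFTest, p-values were adjusted by Benjamini-Hochberg over all genes tested, and the threshold was 0.05. The fit was tested on simulated data. For a log2 difference between genotypes in sub-polysomal RNA, it called 5 of 50 genes at 0.5, 29 at 1 and 47 at 2. For a log2 shift it called 0 of 50 genes at 0.5, 10 at 1 and 44 at 2. In each simulation 12024 of 12224 genes had no such difference, and the changed genes were drawn at random. In the sub-polysomal data 16.8% of genes were called higher and 14.5% lower, so the adjustment for many genes was stricter in that simulation. These counts are therefore no measure of sensitivity for the members. Intervals and errors cover the fitted spread between libraries. Library totals ranged from 1817520 to 6966156 counts, and the members' counts per library from 8 (Tarsl2) to 3133 (Kars). Exon lengths, exon overlaps and gene coordinates came with the deposited counts. Coding lengths and GC values came from GENCODE M21, and promoter windows from RefSeq (GRCm38.p6).

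Members, lists and tests were chosen with earlier results of these data known. Values in each library were given for Mettl7a1, the scaffolds, Wars, Kars and Gars, and, in each comparison and class, for the 3 passing members of lowest p, or where fewer passed, for those of lowest p up to 2; other genes named in the text were chosen after their values were seen. Of the members and promoter windows, 1 gene, which stays in the class counts, and 1 gene's windows are not reported here. Of other lists, the 3 passing genes of lowest p and Atf4, Asns, Ddit3, Trib3 and Chac1 were named.

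Alternatives were RLE size factors, scaling to the Actb count, DESeq2 1.42.0, limma-voom (limma 3.58.1), 2 other filters, only the compared groups, the limits of the study for total RNA, thinning to 1817520 counts, GC offsets (lowess span 0.3, 12157 genes), a replicate block and leaving out each library. Leaving out both libraries of high Lars2 counts was added after seeing the data. Total RNA, proteomics and m6A data were not analysed here.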

Additional observations from a re-analysis of the deposited data

How the results depend on the processing

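The counts of members passing in each direction stayed within 1.5 times the reported ones with RLE size factors, limma-voom, both other filters and only the compared groups. With the limits of the study for total RNA, 0 members passed in mock cells, 1 was higher and 0 lower between the pools of METTL7A1 cells, and 0 differed between genotypes in either pool. With GC offsets 2 were lower in polysomal RNA of METTL7A1 cells (4 reported), where Sars2 turned from −0.66 to 0.0118, and 3 were higher in METTL7A1 sub-polysomal RNA (7 reported). Of all 12224 genes, 3399 were then lower in the first and 1644 higher in the second of these comparisons. Scaling to the Actb count gave 11 higher and 3 lower in sub-polysomal RNA and 4 higher and 0 lower in polysomal RNA. Over all 12224 genes it gave 3283 higher and 667 lower in sub-polysomal RNA, and 1234 and 495 in polysomal RNA. Thinning left 2 lower between the pools of METTL7A1 cells, 1 lower in METTL7A1 polysomal RNA and 4 higher in METTL7A1 sub-polysomal RNA. DESeq2 called 1 member for the shift. Without both libraries of high Lars2 counts, 1 was lower in mock polysomal RNA and 0 lower in METTL7A1 polysomal RNA.

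Leaving out 1 library at a time gave 16 to 19 higher and 2 lower between mock pools, 20 to 23 higher and 3 to 4 lower between METTL7A1 pools, 4 to 7 higher and 6 to 7 lower in METTL7A1 sub-polysomal RNA, 2 to 6 higher and 0 to 2 lower in METTL7A1 polysomal RNA, and 0 to 2 for the shift. The 4 was reached without METTL7A1 sub-polysomal E or mock sub-polysomal A, and the extremes in polysomal RNA and the shift without mock polysomal A or METTL7A1 polysomal D or F.

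The replicate letters are shared by the pools of a genotype, but deviations of same-lettered libraries correlated with r between −0.292 and 0.107 and 5 of 12 libraries matched their own letter best, so the letters were not treated as pairs. With a replicate block 18 members were higher and 2 lower in mock, 22 higher and 3 lower in METTL7A1 cells, and 0 passed for the shift. The causes of these changes were not tested. Of the members, Tarsl2 had the fewest counts, 8 to 90 per library.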
